A study of Mus musculus with 234 samples.

Results

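The mitochondrial genome encodes 13 proteins, all subunits of the respiratory chain or of ATP synthase, and 10 of these genes are described here in single mouse cardiomyocytes (CMs): ND1, ND2, ND4, ND5 and ND6 of complex I, CYTB of complex III, COX1, COX2 and COX3 of complex IV, and ATP6 of complex V. The genes were taken by their row names, which carry no mt- prefix, from a count table of 55538 rows. Its columns were hand-picked CMs from 5 mice, made into full-length SMART-seq2 libraries. Homozygous mice (strain label PGKcre:BAG3P209L_homo) were M25 and M116, the heterozygous mouse (PGKcre:BAG3P209L_het) was M72, and controls (C57BL/6) were M26 and M73. BAG3 is a co-chaperone of sarcomere maintenance, and the transgene encodes a mutant human BAG3 fused to eGFP behind the CAG promoter at the Rosa26 locus, released from a STOP cassette by PGK-Cre in a line from 1 embryonic stem cell clone; homozygous mice had lost the cassette from 1 or both alleles. Single CMs of homozygous and control mice came from animals 2 weeks old, and no age is given for M72. The methods describe a mixed background where the labels give C57BL/6, and name as controls siblings that were wild type or had only PGK-Cre or only the floxed transgene. CMs of transgenic mice were split by fluorescence into eGFP bright and eGFP dim cells. Cells of a mouse share their source, so counts were summed per mouse and eGFP class, giving 8 sums. These were control M26 (24 cells) and M73 (9 cells), homo bright M25 (21) and M116 (59), homo dim M25 (18) and M116 (50), and the cells of M72 labelled het bright (27) and het dim (26).

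Mitochondrial messages are cut from long transcripts that cover nearly the whole circular genome, with tRNAs marking many of the cuts, and most are then polyadenylated, so a poly(A)-primed library captures them. Their proteins are the membrane-embedded cores of complexes whose other subunits are made from nuclear genes. The CM is packed with mitochondria, and these messages make up a large part of its RNA.

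The human BAG3 transgene (hBAG row) was at 0.408 and 0.488 CPM (counts per 1000000) in controls M26 and M73, from 8 and 2 counts. It was at 293.6 and 232.5 CPM in homo bright M25 and M116, 10.7 and 99.6 in homo dim M25 and M116, and 104.8 and 251.2 in the cells labelled het bright and het dim. In both homozygous mice bright cells were higher than dim cells, whereas in M72 the transgene went against the class labels, as did the BAG-eGFP row (62.1 CPM in the cells labelled bright, 208.4 in those labelled dim).

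Cells held 487 to 1392253 counts (median 711527), and 15 cells had fewer than 1000 genes with a count. CM markers gave summed levels of 62838 to 79229 CPM in the 8 sums, with all 7 detected in each. The 5 fibroblast markers summed to 13.8 to 1661 CPM (highest in homo bright M25). The 5 endothelial markers summed to 46.04 to 142 CPM and the 5 immune markers to 0.264 to 57.3 CPM. Immune markers were at 0.264 and 1.97 CPM in homo bright M25 and M116 and 57.3 and 49.6 in homo dim. Endothelial markers were at 46.04 and 59.7 CPM in homo bright and 142 and 139.9 in homo dim. Fibroblast markers had no common direction, at 1661 and 47.4 CPM in homo bright and 27.6 and 150.6 in homo dim. The part of these cells in the results was not tested. The 6 dissociation stress genes summed to 117.5 and 60.5 CPM in controls M26 and M73, 345.6 and 437.4 in homo bright M25 and M116, 136.5 and 521.4 in homo dim, and 159.3 and 244.4 in the cells labelled het bright and het dim, so all 4 homozygous sums were above both controls. Of the 4 stress genes tested against control, none passed the adjusted threshold; Atf3 had a log2 fold change of 3.54 ± 0.90 in bright cells (edgeR p = 0.00716, adjusted p = 0.663) and 3.86 ± 1.01 in dim cells (edgeR p = 0.00699, adjusted p = 0.735). Their part in the results was not tested. Plates and genotypes overlapped in part. M25 and M26 were on one plate (GL-9122b), M72 and M73 on another (GL9989-1), and M116 filled 2 plates that held no control. For M116 against either control, plate and genotype cannot be told apart.

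The 10 genes fell into 7 with high counts and 3 with almost none, and the sequences of the 3 are found at a second place in the genome. A block on chromosome 1 (GRCm38, chr1:24611535-24616197, minus strand) holds 7 annotated unprocessed pseudogenes that copy a stretch of the mitochondrial genome from COX1 to ND4. The aligner's gene counts take uniquely mapped reads only, so a read that matches both places is in neither row. COX2 (chrM:7013-7696, plus strand, protein-coding) and its copy Gm28661 (chr1:24614885-24615565) were the same at 681 of 681 aligned bases. The first 60 bases of both are shown because they are letter for letter alike (chrM:7013-7072 and chr1:24615506-24615565), with nothing in capitals.
COX2: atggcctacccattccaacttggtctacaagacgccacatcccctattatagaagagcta
Gm28661: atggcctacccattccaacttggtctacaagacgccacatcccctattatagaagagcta

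ND3, a complex I gene outside the 10, differed from its copy Gm28438 at 1 of 345 aligned bases, T3C, counted from 1 at the first base of ND3. Capitals mark that base in chrM:9459-9518 (plus strand) and chr1:24613060-24613119 (minus strand), shown because 1 base is all that separates the pair.
ND3: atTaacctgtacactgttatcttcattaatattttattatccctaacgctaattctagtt
Gm28438: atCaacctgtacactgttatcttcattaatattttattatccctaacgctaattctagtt

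COX1 (chrM:5328-6872) shared only its end with the block, and Gm29216 aligned to bases 1063 to 1545 with the single substitution A1066T, again counted from the first base of the mitochondrial gene. In chrM:6381-6440 (plus strand) and chr1:24616138-24616197 (minus strand) the capital marks that base, and the letters before it show where the copy stops resembling COX1.
COX1: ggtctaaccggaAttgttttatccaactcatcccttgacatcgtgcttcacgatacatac
Gm29216: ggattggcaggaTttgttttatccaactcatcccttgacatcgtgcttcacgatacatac

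By contrast, no 75-base window of CYTB (chrM:14145-15288, plus strand) was found in any other annotated transcript. Its opening (chrM:14145-14204) is shown as the gene of the set with the most windows and no copy.
CYTB: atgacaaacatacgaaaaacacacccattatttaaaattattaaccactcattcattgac

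Each gene was cut into all its 75-base windows, the read length of the study. Each window was looked up in the GENCODE M21 transcripts on both strands. The libraries were sequenced from both ends, and single windows take no account of the mate read. For COX2, 99.5% of windows also occurred in another transcript, for COX3 99.9% and for ATP6 99.5%. These 3 genes held 540, 894 and 301 counts over all cells. Over the 8 sums they were at 2.24 to 4.24, 2.88 to 6.09 and 0 to 2.09 CPM. Their copies were higher, at 7.16 to 10.5 (Gm28661), 76.9 to 94.0 (Gm28437) and 4.64 to 15.4 CPM (Gm10925). Copies of COX1 and ND4 were far below those genes, at no more than 37.5 and 7.02 CPM (Gm29216 and Gm28439). The reason was not tested. ND4 shared 61.5% of its windows with Gm28439 and COX1 shared 39.8% with Gm29216 and Gm13340, while ND2 shared 5.71%, ND5 1.66%, and ND1, ND6 and CYTB none. These 7 genes held between 753774 counts (ND6) and 6736821 counts (COX1). Of the other 3 mitochondrial protein genes, ND3 (97.8% of windows shared) held 68 counts and ND4L (98.7%) held 22. ATP8 is the exception: it held 10 counts although none of its windows was found in another annotated transcript. ATP8 (chrM:7766-7969) overlaps the start of ATP6, and the search covered annotated transcripts only. Counts of COX2, COX3 and ATP6 cannot be read as levels of their messages.

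**Figure D1:**
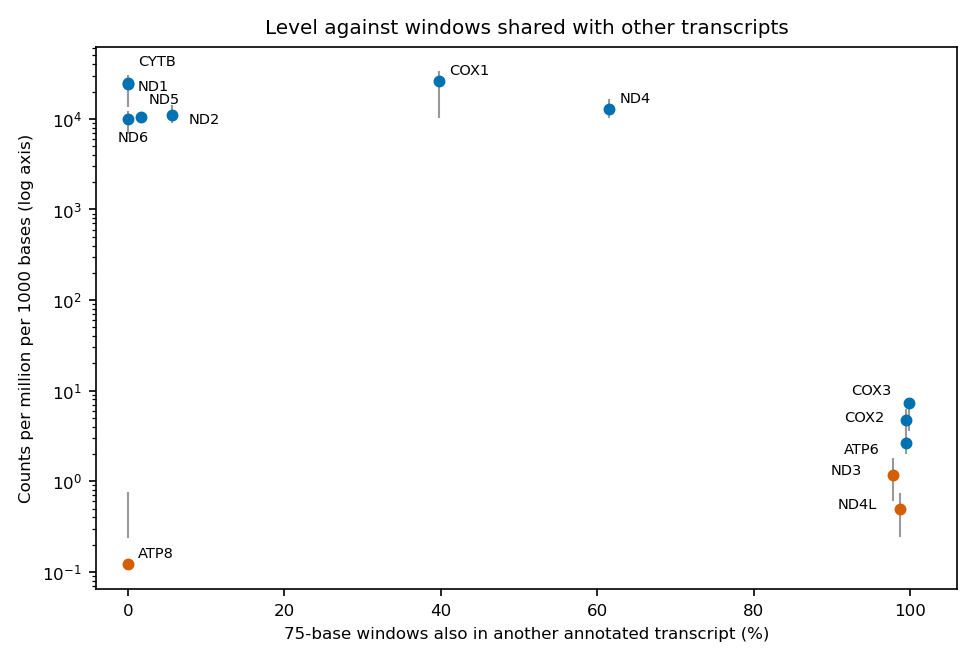
Median level over the 8 sums (CPM per 1000 bases of gene, log axis) against the percent of a gene's 75-base windows that occur in another annotated transcript, with blue points for the 10 genes and orange points for ND3, ND4L and ATP8. Vertical lines run from the lowest to the highest sum with a count, and COX2, COX3 and ATP6 sit at 99.5% or above with medians of 4.74, 7.25 and 2.63 CPM per 1000 bases.

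Per length, the 7 well-counted genes spanned a narrow range. Median CPM per 1000 bases over the 8 sums was 26088 for COX1, the catalytic subunit of cytochrome c oxidase, 25048 for CYTB, the ubiquinol-oxidising cytochrome of complex III, and 24007 for ND1, which lies where ubiquinone enters complex I. The proton-pumping subunits ND4, ND2 and ND5 had 12841.5, 10956 and 10560.1, and ND6 had 10054. The ranges over sums overlapped for COX1 (10524.5 to 33170.0), CYTB (13811 to 29368) and ND1 (15874 to 27528), so their order is not separated beyond the spread. ND2, ND4, ND5 and ND6 overlapped too, with ND4 at 10460.5 to 16257. COX1 overlapped each of these, and ND4 overlapped CYTB and ND1, so the genes do not form separate groups. Per 1000 windows found in no other transcript, the median was 45543 for COX1, 35250.1 for ND4, 26780.4 for CYTB, 26018.5 for ND1, 12510.5 for ND2, 11726 for ND6 and 11192 for ND5. ND6 is the only one of the 13 read from the opposite strand (chrM:13552-14070) and overlaps the end of ND5. The counting column was not stated to use strand, so reads of ND6 and of transcripts of the facing strand cannot be told apart.

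**Figure D2:**
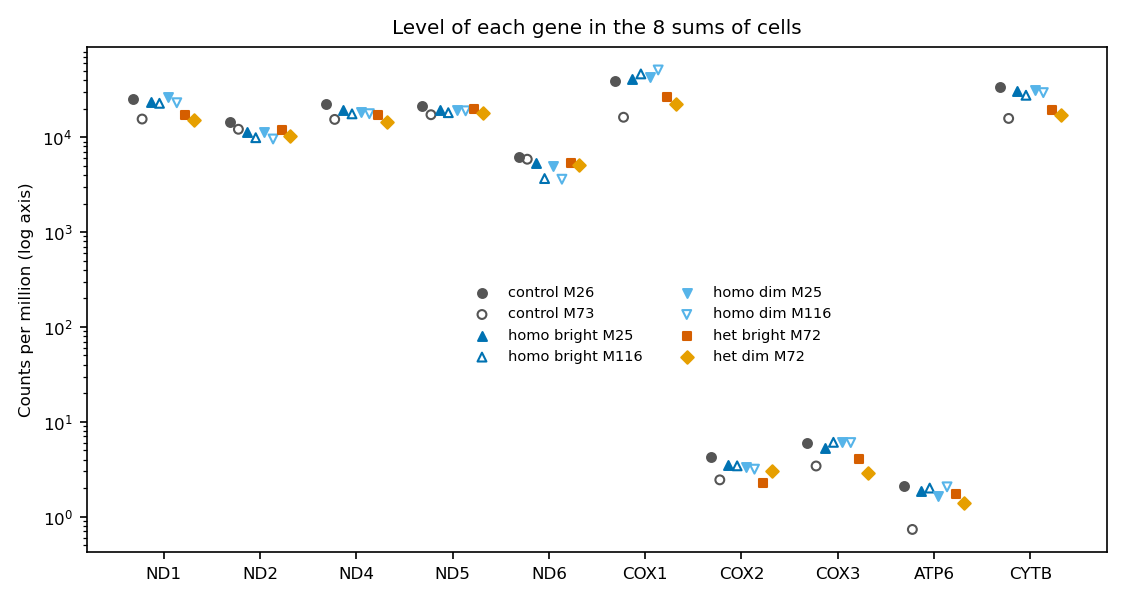
Level of each of the 10 genes in the 8 sums (CPM, log axis), with filled markers for M25, M26 and M72 and open markers for M73 and M116. Symbols give the group, 7 genes lie between 3610.18 and 51248 CPM and 3 lie below 10 CPM, and ATP6 in control M73, with 0 counts, is drawn at the 3-count floor of 0.732 CPM.

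The 10 genes took 23564710 counts, 14.4% of all counts in the table. In the sums the share was 16.2% in control M26 (exact binomial 95% interval 16.224 to 16.257) and 9.84% in control M73 (9.8082 to 9.8659). It was 15.1% in homo bright M25, 14.7% in homo bright M116, 15.6% in homo dim M25 and 15.4% in homo dim M116. The 4 homozygous sums therefore lay between the 2 controls. Cells labelled het bright had 11.8% and those labelled het dim 10.2%. With mitochondrial rRNA (mt-Rnr1 and mt-Rnr2) counted in, controls M26 and M73 had 27.2% and 31.7%. The 4 homozygous sums then lay below both, at 24.7% to 26.9%, and the cells labelled het bright and het dim had 29.1% and 27.1%. Intervals cover counting error only, since the libraries carry no molecular identifiers, and the 2 control mice differed far beyond them.

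The 3 sums from plate GL9989-1, control M73 and both of het M72, were the 3 lowest. On that plate the share over all cells was 10.9%, against 15.7% on GL-9122b, 14.4% on GL9989-2 and 15.7% on GL9989-3. Mitochondrial rRNA moved the other way: mt-Rnr1 and mt-Rnr2 together took 17.7% of counts on GL9989-1 and 10.1%, 12.5% and 9.76% on the other plates. Per sum, the ratio of mitochondrial rRNA to the 10 genes was 2.22 in control M73, 1.47 and 1.64 in the cells labelled het bright and het dim, and 0.625 to 0.752 in the 5 other sums. Median counts per cell were also lowest on GL9989-1, at 537876 against 707340 to 955955. The 2 plates of M116, one mouse, differed by less: homo bright cells gave 14.1% and 15.2%, homo dim cells 14.7% and 16.4%. The part of the plate in these values was not tested.

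**Figure D3:**
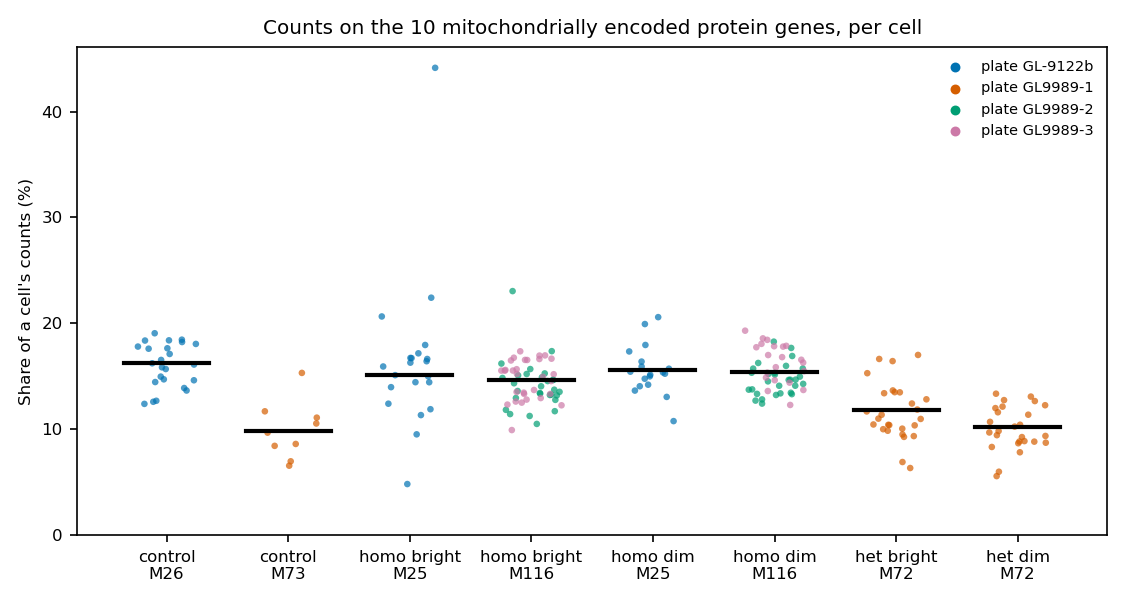
Share of each cell's counts on the 10 genes (%), with one point per cell coloured by plate and a black bar for the summed share of the set. Cells of control M73 and het M72, all on plate GL9989-1, centre on 9.84% to 11.8%, and the other 5 sets on 14.7% to 16.2%.

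Homo bright CMs had a mean share of 14.9% ± 0.347 (SD, n = 2 mice) and controls 13.04% ± 4.53 (n = 2), a difference of 1.86 percentage points (two-sided exact permutation test p = 1, where 2 mice against 2 cannot go below 0.33). The sign turned with the pair: M25 was 1.10 points lower than M26 on the same plate (difference -1.10) and M116 was 4.82 points higher than M73. Homo dim CMs had 15.5% ± 0.12 (n = 2), 2.44 points above controls (exact permutation p = 1), with -0.68 and 5.55 points for the same 2 pairs. Bright against dim within a mouse was -0.416 points in M25 and -0.738 points in M116, so bright was lower in 2 of 2 mice in summed counts (paired exact permutation p = 0.5, the smallest that 2 pairs allow). Taken per cell, the order in M25 turned: the mean share was 16.4% in its bright and 15.6% in its dim cells and the median 15.9% and 15.3%, while M116 kept bright lower (means 14.4% and 15.4%). The bright mean of M25 includes a cell at 44.1% with fewer than 1000 genes, and its weight in the turned order was not tested. Over cells with at least 1000 genes the medians in M25 were 15.5% in bright and 15.3% in dim cells. The mean difference over both mice was -0.577 points in summed counts, -0.0722 with the mean over cells and -0.013 with the median over cells. Adjusted over the 3 share comparisons by Benjamini-Hochberg, all 3 p-values were 1. In the heterozygous mouse the cells labelled bright had 11.8% and those labelled dim 10.2%; the transgene there went against these labels, so no direction between the classes is drawn from this mouse.

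Per-gene levels in the sums show where the genes parted. COX1 was 39384.5 CPM in control M26 and 16260.3 in control M73, against 41227 and 46561.5 in homo bright M25 and M116, 43255 and 51248 in homo dim, and 26739.6 and 22298.5 in the cells labelled het bright and het dim. All homozygous sums were above both controls on this unscaled measure. ND6 ran the other way, with 6173 and 5869 CPM in controls M26 and M73, 5379.5 and 3670.45 in homo bright, 4922 and 3610.18 in homo dim, and 5419 and 5057 in the cells labelled het bright and het dim. ND2 was 14437 and 12146 CPM in controls, 11333 and 9899 in homo bright, 11412 and 9589.62 in homo dim, and 11873 and 10430.1 in the heterozygous mouse. For ND2 and ND6 both groups of homozygous sums were below both controls, without overlap.

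The test across genes, edgeR's quasi-likelihood test with TMM scaling and Benjamini-Hochberg adjustment, passed none of the 10 in homo bright against control (0 of 10, where 0.0164% of 12203 features passed). DESeq2 passed 0 of 10 too, where 0.754% of the features passed. At an unadjusted p under 0.05 edgeR also gave 0 of 10, where 6.55% of features passed. The smallest were ND2, with a log2 fold change of -0.64 ± 0.26 (SE, edgeR p = 0.0513, adjusted p = 0.767), and ND6, with -0.73 ± 0.31 (edgeR p = 0.0544, adjusted p = 0.780). After scaling, ND2, ND4, ND5 and ND6 lay below both controls in both mice, 4 of 10 where 14.8% of features did, and 0 of 10 lay above where 24.3% did. These counts rest on the TMM scaling. In CPM by library size, ND2 and ND6 lay below both controls (2 of 10, 8.24% of features), ND4 and ND5 lay between the controls with log2 fold changes of -0.04 and -0.03, and COX1 lay above both (1 of 10, 33.7% of features). On that scale the median of all features was 0.41, ND2 had -0.32 ± 0.32 and ND6 -0.41 ± 0.33 (edgeR p = 0.351 and 0.256, adjusted p = 0.907 and 0.899). COX1 had 0.37 ± 0.41 (adjusted p = 0.950 by edgeR) and its scaled groups overlapped. Which control was kept decided its value: 1.03 without M26 (edgeR p = 0.00266, adjusted p = 0.0852) and -0.08 without M73. Leaving out a mouse leaves 1 in its group, so the spread comes from the 2 mice of the other group, and without M26 an unadjusted p under 0.05 was reached by 27.4% of features. ND6 had -0.45 without M116 and -1.03 without M25 (edgeR p = 0.0389, adjusted p = 1.00, with 1.58% of features under 0.05 before adjustment). The median log2 fold change of the 10 was -0.18, beside 0.11 over all features, with 8 of 10 negative; over the 7 genes with high counts, ND6 and its strand limit included, it was -0.34, with 6 of 7 negative. With the series of plate names as a block (GL-9122b against the GL9989 plates, so that M116 and M73 share a series but not a plate, and the labels do not say what a series stands for), 2 of 10 had an unadjusted p under 0.05, where 4.29% of features did, ND2 with -0.65 ± 0.21 (edgeR p = 0.00866) and ND6 with -0.76 ± 0.25 (edgeR p = 0.00828), both at an adjusted p of 0.851.

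Homo dim against the same 2 control mice passed 0 of 10, where 0% of 12195 features passed the adjusted threshold. 1 of 10 had an unadjusted p under 0.05, ND6 with -0.78 ± 0.33 (edgeR p = 0.0493, adjusted p = 0.800), where 6.22% of features did. ND2, ND4, ND5 and ND6 were again below both controls (4 of 10, 14.2% of features) and none above (23.8% of features). In CPM by library size this too was ND2 and ND6 alone (2 of 10, 8.09% of features), with ND4 at -0.06 and ND5 at -0.0013, while COX1 and COX3 lay above both controls (2 of 10, 32.5% of features); the median of all features was then 0.38, ND2 had -0.34 and ND6 -0.50. The comparison shares its controls with the one before. ND2 had -0.63 ± 0.33 and COX1 0.49 ± 0.46. COX1 had 1.18 without control M26 (edgeR p = 0.00331, adjusted p = 0.0526) and 0.04 without M73. Without M26, with M73 as the lone control, 27.9% of features had an unadjusted p under 0.05 and 5.89% passed the adjusted threshold. ND6 had -0.55 without M116 and -1.02 without M25 (edgeR p = 0.0412, adjusted p = 1.00, with 1.26% of features under 0.05 before adjustment). The median of the 10 was -0.14 beside 0.10 over all features, with 5 of 10 negative, and over the 7 genes with high counts -0.29 with 4 of 7 negative. With the series of plate names as a block, ND2, ND6 and COX1 had an unadjusted p under 0.05 (3 of 10, 4.46% of features), with log2 fold changes of -0.63, -0.81 and 0.60, and 0 of 10 passed after adjustment.

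In bright against dim cells of the homozygous mice, 0 of 10 passed (0% of 13439 features at the adjusted threshold, 4.17% at an unadjusted p under 0.05, 0 of 10 members), and log2 fold changes ran from -0.13 for COX1 to 0.07 for COX2. With the mouse as a replicate block, COX1 alone of the 10 had an unadjusted p under 0.05 (1 of 10, 3.39% of features), at -0.12 ± 0.03 (edgeR p = 0.0231, adjusted p = 1), with -0.09 in M25 and -0.18 in M116. COX3 alone was lower in both bright sums than in both dim sums (1 of 10, 15.7% of features) and none was higher (15.4%). In CPM by library size the COX3 groups overlapped, while COX2 was higher in both bright sums. COX2 was at 3.49 and 3.43 CPM in bright M25 and M116 and at 3.32 and 3.16 in dim. How many of all features did so on this scale was not taken for this comparison. COX3 rests on 101 to 246 counts per sum and COX2 on 61 to 139, and neither can be read as a level. Of the non-CM markers, all 4 immune and all 5 endothelial genes tested were lower in both bright sums than in both dim sums. None of these passed the adjusted threshold, and their part in this comparison was not tested. The classes were split by fluorescence, and the RNA of the human transgene (hBAG row) had a log2 fold change of 2.27 ± 0.93. Against controls in bright CMs it had 8.96 ± 0.53 (edgeR adjusted p = 0.0123). The other feature past the adjusted threshold there was the BAG-eGFP row (edgeR adjusted p = 0.0123), at 220.1 and 223.6 CPM in homo bright M25 and M116 and with 1 and 0 counts in controls M26 and M73.

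Composition, the split of member counts among the genes, does not depend on depth or on the scaling between sums. COX1 took 24.3% and 16.5% of member counts in controls M26 and M73, 27.2% and 31.8% in homo bright M25 and M116, 27.8% and 33.3% in homo dim, and 22.7% and 21.8% in the cells labelled het bright and het dim. Both homozygous mice exceeded both controls in each class, and M25 exceeded M26 on the same plate by 2.97 points in bright and 3.55 points in dim cells. ND2 took 8.89% and 12.3% in controls, 7.48% and 6.76% in homo bright and 7.33% and 6.23% in homo dim. ND6 took 3.801% and 5.97% in controls, 3.55% and 2.50% in homo bright and 3.16% and 2.35% in homo dim. ND4 and ND5 were likewise lower than both controls in bright and in dim, whereas ND1 and CYTB overlapped. These shares add up to a whole, so a larger part for COX1 leaves less for the others, and their differences are not independent. In CPM by library size ND4 and ND5 lay between the controls in both classes. ND1 was the steadiest gene, at 14.7% to 16.9% in all 8 sums. Each non-overlapping difference had an exact permutation p of 0.33 (n = 2 mice a group), the smallest possible, and 0.7 adjusted over the 21 composition comparisons.

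**Figure D4:**
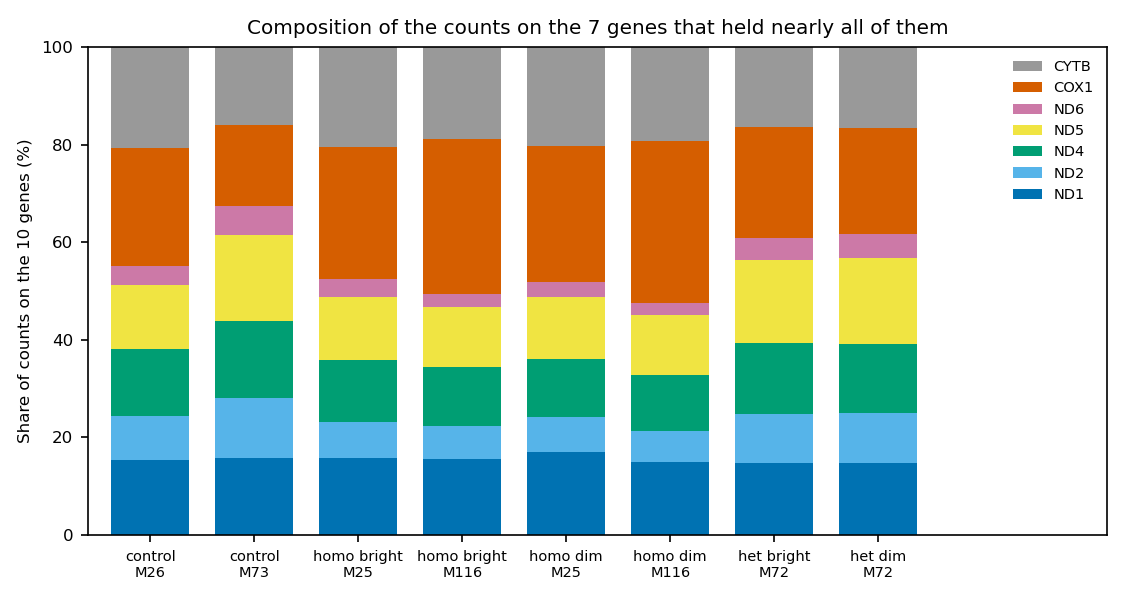
Stacked bars from 0 to 100% give the share of the counts on the 10 genes held by each of 7 genes in the 8 sums. COX1 fills 27.2% to 33.3% of the 4 homozygous bars, 16.5% to 24.3% of the control bars and 21.8% to 22.7% of the heterozygous bars.

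Among single cells with at least 1000 genes, COX1 took a median of 24.3% of member counts in 20 cells of control M26 (range 15.1 to 30.7%) and 25.8% in 20 homo bright cells of M25 (20.7 to 34.3%), on one plate with ranges that overlapped broadly. On the same plate, 18 homo dim cells of M25 had a median of 28.3% (17.1 to 39.3%). In 8 cells of control M73 the median was 13.6% (6.63 to 26.4%), and in 24 and 25 cells labelled het bright and het dim, on the same plate, 20.6% and 20.2%. M116 gave 31.8% in 56 bright and 33.4% in 48 dim cells. ND6 had medians of 3.63% and 6.92% in controls M26 and M73, 3.71% and 3.24% in bright and dim cells of M25, and 2.44% and 2.45% in bright and dim cells of M116, so that bright cells of M25 were not below the control of their own plate.

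The members moved together from cell to cell, though not evenly. Scaled to counts outside the 10 genes, the mean Spearman correlation over the 8 sets (219 cells, description only, since both values share a library) was highest for COX1 with CYTB, at 0.83. It was 0.71 for ND4 with each of ND1, ND2 and CYTB and for ND5 with CYTB. ND6 and COX1 had 0.01, the lowest of the 21 pairs, while ND6 and ND2 had 0.62. Among 1458 features outside the mitochondrial rows detected in 90% or more of cells, the 5 whose share of the counts outside the 10 genes most followed the share on the genes were Gm13340 (mean correlation 0.64), Gm28437 (0.62), Gm28438 (0.61), Actc1 (0.50), the cardiac actin, and Atp5b (0.45), the nuclear beta subunit of ATP synthase. Gm13340, Gm28437 and Gm28438 share windows with COX1, COX3 and ND3, so their counts are not independent of mitochondrial reads. The median correlation over all 1458 was 0.02. At the other end, looked at after the values were seen, were 5 features, Rplp1 (-0.48), Rps24 (-0.43), Rps19, Rps27 and Gm42826 (-0.40 each).

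Share of counts and depth had no common relation. Spearman correlation between a cell's total counts and its share on the 10 genes was 0.16 in control M26, 0.02 in control M73, -0.39 and 0.24 in homo bright M25 and M116, -0.08 and 0.09 in homo dim M25 and M116, and 0.24 and 0.38 in the cells labelled het bright and het dim. The sign was positive in 6 of 8 sets. A cell's total includes the members' own counts; against the counts outside the 10 genes the sign was positive in 4 of 8 sets, from -0.49 to 0.30. Against genes detected, the correlation ran from -0.34 to 0.17. The 18 cells under 10000 counts (487 to 6972) had shares of 8.72% to 17.8% with a median of 12.9%, and the 214 cells with at least 100000 counts had a median of 14.4%. In all, 200 cells lay between 10% and 20%. The highest cell, homo bright of M25, had 44.1% at 257487 counts and 938 genes, and the lowest, of the same set and plate, had 4.81% at 849593 counts and 3143 genes. Leaving out cells under 1000 genes lowered the highest share to 23.04%.

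**Figure D5:**
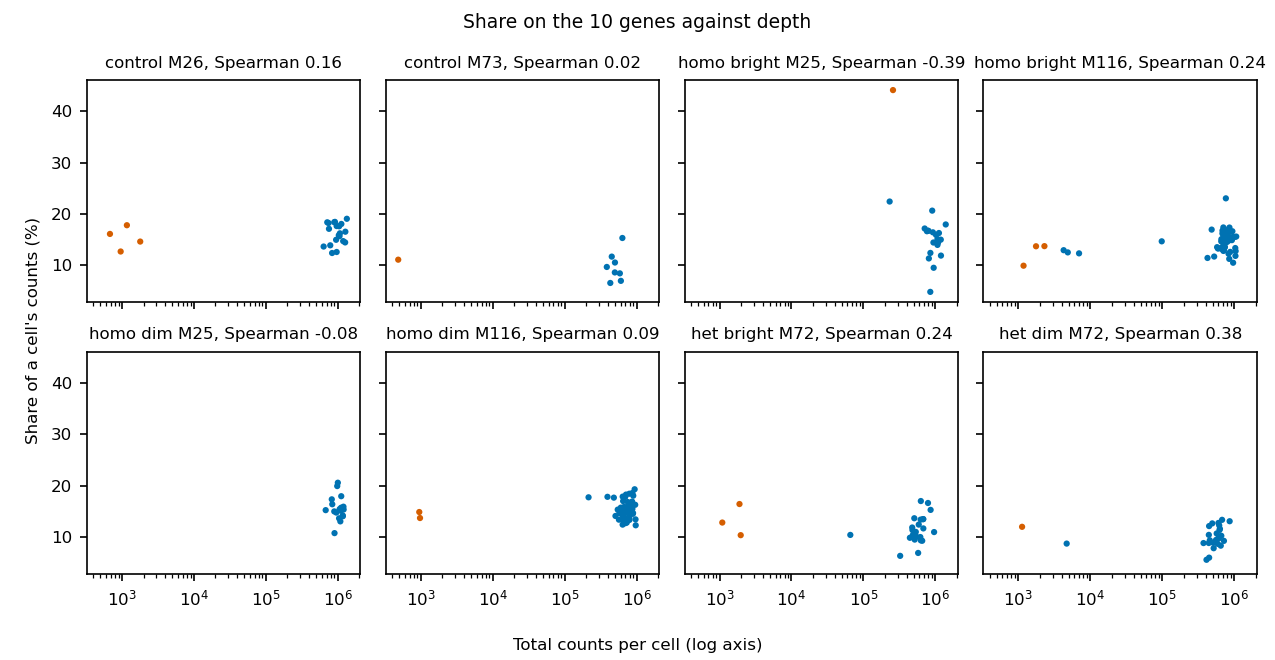
Share of a cell's counts on the 10 genes (%) against its total counts (log axis), one panel per set, with orange points for cells under 1000 genes and Spearman correlation over all cells of the set in each title. The correlation ranges from -0.39 to 0.38, and the 44.1% cell is in homo bright M25.

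Nuclear subunits of the same complexes give a measure inside each sum. Over complexes I, III, IV and V, 44 nuclear genes were compared with the 10 mitochondrial ones; 15 of the 44 belong to complex V, whose only gene among the 10, ATP6, cannot be read as a level. The log2 ratio of member to nuclear counts was 1.04 and 0.85 in controls M26 and M73, 1.16 and 1.27 in homo bright M25 and M116, 1.13 and 1.39 in homo dim, and 1.03 and 0.81 in the cells labelled het bright and het dim. Homozygous sums were above both controls, by a mean of 0.27 in bright and 0.31 in dim cells (exact permutation p = 0.33 each, n = 2 mice a group, 0.5 adjusted over 12 ratio comparisons). The bright difference was 0.17 without control M73 and the dim difference 0.18 without M116. With the 7 genes of high counts over the 29 nuclear genes of complexes I, III and IV, the differences were 0.33 and 0.39, and both controls again lay below all 4 homozygous sums. The complexes did not move alike. For complex IV, COX1 over its nuclear partners, homo bright was 0.99 above controls and homo dim 1.10 above, and for complex III, with CYTB, 0.41 and 0.46. For complex I, with ND1, ND2, ND4, ND5 and ND6, both were below both controls, by a mean difference of -0.17 in bright and -0.14 in dim cells. On the one shared plate these differences were smaller, at 0.35, 0.19 and -0.05 for complexes IV, III and I in bright cells, against 1.63, 0.62 and -0.30 for M116 minus M73.

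None of the 44 nuclear subunits passed the adjusted threshold in any of the 3 comparisons. In homo bright against control the median log2 fold change was -0.15 over 7 core subunits of complex I, -0.33 over 9 of complex III, -0.44 over 13 of complex IV and -0.38 over 15 of complex V, beside 0.11 over all features. The smallest p-values were those of Cox7a1, the muscle form of a complex IV subunit, with -1.23 ± 0.29 (edgeR adjusted p = 0.663), Cox8b with -0.95 ± 0.29, Atp5k with -0.95 ± 0.30 and Uqcr11 with -0.79 ± 0.26. Of the genes that copy and transcribe mitochondrial DNA, 0 of 15 tested passed, with a median of -0.24 in bright against control and 0.21 in dim against control. Of those that process or stabilise its RNA, 0 of 19 passed, with medians of -0.13 and -0.04. CM markers had a median of -0.73 in bright and -0.70 in dim cells against control, none past the adjusted threshold. mt-Rnr1 and mt-Rnr2 had -1.06 ± 0.50 and -1.03 ± 0.44 in bright cells, with control M73 at 192112 CPM of mt-Rnr2 and control M26 at 97592.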

How the data were processed

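Counts per gene and cell were deposited by the authors as raw counts, made per the study's methods with STAR gene counts (uniquely mapped reads) on the mouse genome plus human BAG3 and eGFP transcripts; the submitters' processing notes also name bcl2fastq. Build, annotation and strand column are not given in the sources used here; 55146 of 55538 symbols matched GENCODE M21 (GRCm38), which supplied coordinates and sequences. Genes, lists and tests were chosen with earlier results of these data known. The named genes were all 10 genes, other mitochondrial rows, up to 3 genes with the smallest p per list, every gene past the threshold, and the 5 features most like the 10 over cells. Counts were summed per mouse and eGFP class, since the mouse is the replicate; sums held 4096609 to 40508124 counts. edgeR 4.0.16 (filterByExpr, TMM, quasi-likelihood test, threshold 0.05) was run per comparison on all features and tested on simulated data; shares and ratios used exact permutation tests in scipy 1.17.1. Alternatives used DESeq2 1.42.0 and limma 3.58.1. Bright and dim cells came from the same mice, so these sums are paired: their M25 to M116 log2 ratios correlated with r = 0.21 over 5074 genes. No per-cell columns were left unused, and no cells were excluded from the main sums.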

Additional observations from a re-analysis of the deposited data

Results flagged for a closer look

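The share of counts on the 10 genes moved in opposite directions in the 2 control pairs. In homo bright cells, M25 differed from M26 by -1.10 percentage points and M116 from M73 by 4.82 points. In homo dim cells the same pairs gave -0.68 and 5.55 points. The difference between the pairs was not tested, since each holds 1 mouse a group, and the controls are shared by both classes. M25 and M26 shared a plate, M116 and M73 did not.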

How the results depend on the processing

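No setting tried passed any of the 10 genes. The share difference turned negative without control M73 (over single mice left out, -1.34 to 5.06 points in bright and -0.765 to 5.64 in dim) and, as a log2 ratio of all mitochondrially encoded rows over the other counts, was -0.31 in bright and -0.24 in dim. The median log2 fold change against control became 0.12 (bright) and 0.14 (dim) with library size in place of TMM, 0.22 and 0.25 with limma on mean cell log2 CPM, -0.34 (bright) over the 7 genes with over 100000 counts, -0.36 and -0.38 with M25 and M26 alone, and 0.11 and 0.10 with M116 and M73 alone; over single mice left out it ran from -0.41 to 0.15 in bright and -0.39 to 0.19 in dim. The log2 ratio to nuclear subunits ran, over single mice left out, from 0.17 to 0.36 (bright) and 0.18 to 0.44 (dim) against control; bright minus dim, it was -0.05, and -0.12 without M25 and 0.029 without M116. In the paired fit of bright against dim, with the mouse as a replicate block, 0 of the 10 genes passed after adjustment and their median was -0.03, while COX1 fell under an unadjusted p of 0.05, as given above; the block changed no other call on the 10 genes. ND2 and ND6 kept a negative sign against control in all 15 alternatives in both classes, but not their size: in bright cells ND2 ran from -0.74 to -0.30 and ND6 from -1.09 to -0.32, and in dim cells from -0.75 to -0.31 and -1.08 to -0.43, nearest to 0 with limma on mean cell log2 CPM. At an unadjusted p under 0.05, 2 of 10 passed in bright cells with DESeq2 size factors in edgeR, where 822 of 12203 features did. With rRNA left out it was 2 of 10 (805 of 12272 features), and with all features that had a count 2 of 10 (1272 of 20705). With cells of at least 1000 genes it was 1 of 10 (791 of 12200). Alternatives on rRNA, on overlap in CPM by library size, on the 7 genes, on single pairs of mice and on the nuclear ratio were chosen after seeing the data. Counts of calls over all features moved with the tool: DESeq2 called 92, 53 and 91 in the 3 comparisons, in the order given above, where edgeR called 2, 0 and 0. With all features that had a count, edgeR called 163, 58 and 217. ATP6, at 0 counts in control M73, has no usable fold. The main limit is 2 mice a group.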
